A study of Mus musculus with 6 samples.

Results

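RUNX factors are DNA-binding proteins that either activate or repress genes depending on the cofactors they meet, and the ETO proteins are corepressors that bring histone deacetylases to DNA-bound factors. The family was taken as 7 genes by name: Runx1, Runx2 and Runx3, their shared non-DNA-binding partner Cbfb, and the ETO genes Runx1t1, Cbfa2t2 and Cbfa2t3. Of these, 6 had a row among the 13962 genes of the deposited table, and all 6 passed the filter on low counts; Cbfa2t3 had no row and is not analysed here. The rule goes by gene name, though the family was picked with earlier results of these data known. Of the 6, edgeR's test called 1, Runx1, which fell in the libraries labelled TLE3 knockout; over all tested genes, 12.3% were called.

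The 6 libraries came from C57BL/6 inguinal preadipocytes made immortal by the Large T antigen and grown into beige adipocytes, white-depot fat cells able to burn fuel for heat as brown fat does. Every library carried the genotype TLE3F/F CreERT2, in which Tle3 is floxed and the recombinase acts once tamoxifen is given; the promoter that drives CreERT2 is not given in the sources used here. All cells received insulin (20 nM), T3 (1 nM) and an inducing cocktail with rosiglitazone (1 uM). On day 4 they were given either ethanol (control, n = 3) or 4-hydroxytamoxifen (500 nM, labelled TLE3 knockout, n = 3) for 24 hours, and they were harvested on day 10. No cells without CreERT2 received tamoxifen in this series, so effects of the compound or of the recombinase and effects of the deletion cannot be told apart. Nothing says that replicates were separate cultures, so the p-values reflect library-to-library spread that could be technical.

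In mesenchymal cells RUNX2 is best known as the factor that commits progenitors to bone, RUNX1 and RUNX3 are best known from blood and lymphoid cells, and CBFB raises the affinity of all of them for DNA. RUNX1T1, also called ETO, is known for its fusion with RUNX1 in leukaemia and for holding back adipogenesis through C/EBP-beta; CBFA2T2 and CBFA2T3 are its paralogs. TLE3 belongs to the Groucho corepressors, which RUNX proteins bind through a short motif at their very C terminus, with the residues valine, tryptophan, arginine, proline and tyrosine. That link between the family and the targeted gene is written in the last codons of the RUNX genes. The lines below give the last 30 coding bases, stop codon included, of the GENCODE M21 transcript with the longest coding sequence that ends in the motif, with its 5 codons in capitals.
Runx1: ctggaggaggccGTGTGGCGGCCCTACtga
Runx2: atggatgagtctGTTTGGCGGCCATATtga
Runx3: atggacgaggccGTGTGGCGGCCCTACtaa
Over the 15 bases in capitals, Runx1 and Runx3 were identical, and Runx2 matched each of them at 12. The motif ended 3 of 4 annotated coding transcripts of Runx1, 7 of 7 of Runx2 and 2 of 2 of Runx3. The counts are per gene and do not tell these transcripts apart.

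The RUNX genes also carry RUNX motifs at their own distal promoters. The motif was searched as TGTGGT or TGCGGT on both strands (ACCACA and ACCGCA on the other strand) in RefSeq promoter windows of build GRCm38.p6, each 250 bases before to 50 bases after a gene's start. In 1 window each of Runx1, Runx2 and Runx3, a pair of motifs stood on the same strand with first bases 8 apart, shown here in 30 bases with every motif in capitals. The Runx2 stretch also holds 1 motif on the opposite strand, TGCGGT, at its end, and the whole Runx2 window held 4 motifs against 2 in those of Runx1 and Runx3.
Runx1: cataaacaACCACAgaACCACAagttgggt
Runx2: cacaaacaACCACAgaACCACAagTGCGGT
Runx3: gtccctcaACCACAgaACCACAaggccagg
The Runx1 stretch lies at chr16:92826025-92826054 (minus strand), that of Runx2 at chr17:44814583-44814612 (minus strand) and that of Runx3 at chr4:135120503-135120532 (plus strand). The pair began 29 and 24 bases into the annotated transcript for Runx1 and Runx2, and 134 bases before the start for Runx3. Such a pair was present in 9 of 32851 windows (0.0274%), of which 3 were these, and 1 more, of Gm16225, overlaps the Runx3 window; a single motif was present in 22.4% of windows. The other annotated windows of Runx1 and Runx3 and the windows of Cbfb and Cbfa2t2 held no match to these letters. Of the 2 windows of Cbfa2t3, 1 held a single motif, 124 bases before the start. A window was found for 6 of the 7 genes (Runx1t1 had none in the table). A match is a description of sequence, and no measurement of this series shows which promoter was in use or whether a factor bound there.

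Total counts per library ran from 14606228 to 19294632. In the fit of all genes, 1629 of 13192 tested genes changed (12.3%), 911 upward (6.91%) and 718 downward (5.44%), at a Benjamini-Hochberg adjusted p under 0.05 from edgeR's quasi-likelihood test. Tle3, the targeted gene, moved against the label: it was at 151.4, 151.3 and 152.1 CPM (read counts relative to the TMM-scaled library total) in controls 1 to 3 and at 286.9, 288.9 and 294.2 CPM in the libraries numbered knockout 1 to 3 by their labels. Gene-level counts do not separate deleted exons from the rest of the gene, so they check nothing about the labels, on which every direction below rests. The cause of the higher Tle3 counts was not tested. Adipocyte markers were high in both groups, but so were markers of other mesenchymal cells. All 7 adipocyte markers fixed for the check were in the table. They summed to 9191 to 10940 CPM in controls and 10178 to 11746 CPM in libraries labelled knockout. Most of this came from Fabp4 (4514 CPM in controls) and Lpl (3792 CPM in controls). Preadipocyte or fibroblast markers summed to 12963 to 14656 CPM in controls and 10191 to 10878 CPM in libraries labelled knockout. Smooth muscle or pericyte markers summed to 1666 to 1943 CPM in controls and 1774 to 1826 CPM in libraries labelled knockout. Of 7 blood cell markers, Ptprc, Adgre1, Cd3e and Itgam had no row, and the summed level of the 3 with a row was 3.66 to 4.75 CPM in controls and 4.74 to 5.39 CPM in libraries labelled knockout. Of 7 osteoblast markers, Sp7, Bglap, Bglap2, Ibsp and Sost had no row, and the other 2 summed to 2.91 to 4.12 CPM in controls and 3.6 to 3.87 CPM in libraries labelled knockout.

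Per transcript length, the family members differed widely in level. The only length-scaled values are the authors' FPKM, deposited as whole numbers, so neighbours in this order that differ by 1 cannot be told apart. Cbfb stood highest, at 44 to 47 FPKM in controls and 41 to 45 FPKM in libraries labelled knockout. Cbfa2t2 was at 7 FPKM in all 6 libraries, Runx1 at 7 to 8 FPKM in controls and 5 to 6 FPKM in libraries labelled knockout, and Runx2, in the row with more counts of its 2 rows, at 4 to 5 FPKM in controls and 4 FPKM in libraries labelled knockout. The other Runx2 row was listed at 4 to 6 FPKM in controls and 4 to 5 FPKM in libraries labelled knockout, so the place of Runx2 relative to Runx1 and Cbfa2t2 depends on how the rows are taken. Runx1t1 followed at 2 to 3 FPKM in controls and 2 FPKM in libraries labelled knockout, and Runx3 was listed at 0 in every library. The subunit shared by the RUNX proteins was thus the most highly expressed gene of the family on this scale, and the lymphoid member Runx3 the lowest.

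Runx1, the RUNX factor that is essential for the first blood stem cells, was lower in every library labelled knockout than in any control. Its levels were 52.05, 51.58 and 60.39 CPM in controls 1 to 3 and 42.52, 44.38 and 42.99 CPM in knockouts 1 to 3. The groups did not overlap, and the 3 libraries labelled knockout lay close together while control 3 stood above the other controls. The mean fell from 54.67 ± 4.96 to 43.3 ± 0.968 CPM (SD, n = 3 in each group), a ratio of 0.79. The log2 fold change was −0.34 (SE 0.0645, 95% interval −0.482 to −0.198; edgeR adjusted p 0.00734), against a background in which 12.3% of all tested genes were called and 31.8% had groups that did not overlap in CPM. By exact two-sided permutation of the libraries, p was 0.1, the minimum for 3 against 3. Among the 718 genes that fell, 45% fell by more than Runx1. Without control 3, where Runx1 was highest, the log2 fold change was −0.257 (edgeR adjusted p 0.0112).

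**Figure D1:**
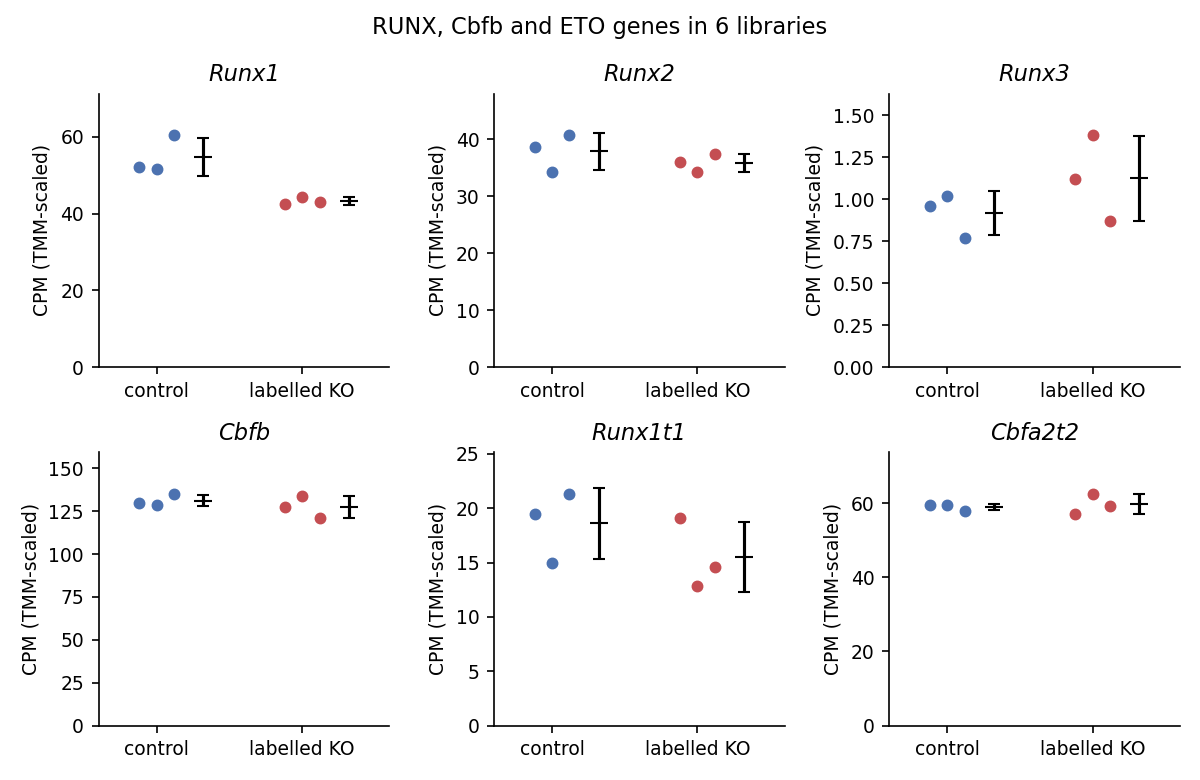
Level of each family member with a row in the table, in CPM on TMM-scaled library sizes (vertical axis, starting at 0), in the 3 control libraries (blue) and the 3 libraries labelled knockout (red), left to right in replicate number. Black marks give the mean and SD of each group. For Runx1 the libraries labelled knockout sit between 42.52 and 44.38 CPM, all below the controls at 51.58 to 60.39 CPM, and in the other panels the groups overlap.

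Runx2, the bone-lineage factor, showed no such separation. It was at 38.57, 34.32 and 40.68 CPM in controls 1 to 3 and at 35.92, 34.29 and 37.43 CPM in knockouts 1 to 3. The groups overlapped, with the lowest control beside the lowest library labelled knockout. The log2 fold change was −0.08 (SE 0.0689, 95% interval −0.233 to 0.07; edgeR adjusted p 0.487), an interval that leaves room for a fall of up to 0.233 on the log2 scale. The table has another row named Runx2 under an ID that GENCODE M21 does not hold, ENSMUSG00000092206, and the row with more counts, ENSMUSG00000039153, was used. The other row was at 13.53, 11.3 and 14.6 CPM in controls and 10.91, 11.06 and 13.12 CPM in libraries labelled knockout, again with overlap (edgeR adjusted p 0.346). With both rows summed, a setting chosen after seeing the data, Runx2 averaged 51 ± 4.92 CPM in controls and 47.58 ± 2.68 CPM in libraries labelled knockout (SD, n = 3 per group; log2 fold change −0.105, edgeR adjusted p 0.371). Runx2 also overlaps Supt3 on the opposite strand, at 16.73 CPM in controls and 18.33 CPM in libraries labelled knockout. Since the strand setting of the counting is not given, reads of the overlap cannot be assigned with certainty. The same limit holds for Runx1 and Runx3, which overlap the antisense genes Gm26626 and Gm16224, neither with a row. Cbfa2t3, itself without a row, overlaps the protein-coding gene Gm20388 on the opposite strand (245.4 CPM in controls, 239 CPM in libraries labelled knockout).

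Runx3, which acts in T cells and sensory neurons, was at the edge of detection. It had 17, 15 and 15 counts in controls 1 to 3 and 18, 20 and 13 counts in knockouts 1 to 3, or 0.77 to 1.02 CPM and 0.87 to 1.38 CPM. The groups overlapped, and at this depth a difference was not detectable unless large: the 95% interval of the log2 fold change ran from −0.282 to 0.904 (edgeR adjusted p 0.506). Only 5.5% of tested genes had a lower mean level.

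Cbfb, the partner that stabilizes RUNX proteins on DNA, was at 129.6, 128.8 and 135.1 CPM in controls 1 to 3 and at 127.4, 133.8 and 121.1 CPM in knockouts 1 to 3. The library labelled knockout with the highest level lay between the controls, so the groups overlapped. The log2 fold change was −0.04 (SE 0.0468, 95% interval −0.145 to 0.061; edgeR adjusted p 0.608), which is narrower than the interval of any other RUNX or CBF gene. Its mean level was 131.2 ± 3.44 CPM in controls and 127.4 ± 6.32 CPM in libraries labelled knockout (SD, n = 3 per group).

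**Figure D2:**
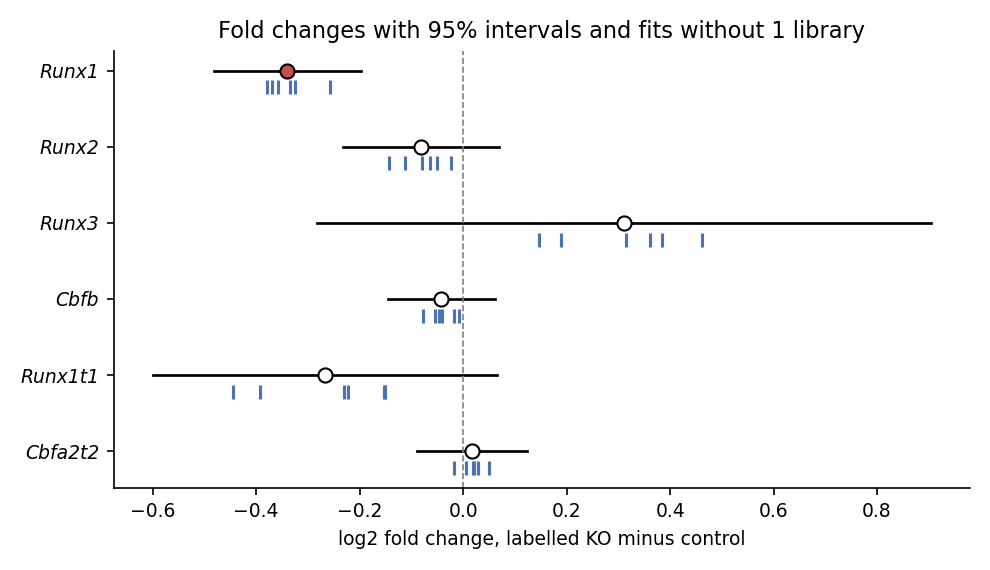
Log2 fold change of each member, libraries labelled knockout minus controls (horizontal axis), with the 95% interval as a black line; the filled circle passed an adjusted p under 0.05 and open circles did not. Blue ticks give the value without each of the 6 libraries in turn: those of Runx1 run from −0.379 to −0.257 and all lie below 0, while those of Cbfa2t2 lie on either side of 0.

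Because a ratio of counts within a library needs no scaling between libraries, it was used to ask whether RUNX members moved differently. With the Runx2 row that holds more counts, the log2 ratio of Runx1 to Runx2 counts was 0.432, 0.588 and 0.57 in controls 1 to 3 and 0.244, 0.372 and 0.2 in knockouts 1 to 3. On that row Runx1 counts exceeded Runx2 counts in every library, and the excess was smaller in each library labelled knockout than in any control. With both Runx2 rows summed, Runx1 was the higher in 2 of 6 libraries only, controls 2 and 3: the log2 ratio was −0.002, 0.177 and 0.127 in controls 1 to 3 and −0.139, −0.031 and −0.234 in knockouts 1 to 3. Which gene has more counts thus depends on the rows taken, while the groups did not overlap either way. On the row with more counts, the mean log2 ratio went from 0.53 ± 0.085 to 0.272 ± 0.09 (SD, n = 3 per group), a difference of −0.258, with an exact two-sided permutation p of 0.1 and 0.2 after Benjamini-Hochberg adjustment over the 4 pairs compared; no adjusted value could pass 0.05 with 3 against 3 libraries. The difference was −0.236 with the rows summed (exact permutation p = 0.1). The ratio of Runx1 to Runx3 also had groups without overlap (difference −0.619, exact permutation p = 0.1, adjusted 0.2), but rests on at most 20 Runx3 counts per library. The ratio of Runx2 to Runx3 overlapped between groups (difference −0.361, exact permutation p = 0.4, adjusted 0.4).

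Some preadipocyte and fibroblast markers were also lower in libraries labelled knockout. Of the 8 fixed for the check, 6 were in the table and 3 fell: Pdgfra, a receptor of mesenchymal progenitors (log2 fold change −0.38), the surface protein gene Thy1 (−0.42) and the fibronectin gene Fn1 (−0.45), with 5.44% of all tested genes called downward. Col3a1 (−0.181), Cd34 (0.075) and Ly6a (0.136) did not pass, and the preadipocyte gene Dlk1, which is not on this list, rose (described with the adipogenic regulators). The list, most of whose CPM came from Fn1 (9829 CPM in controls and 7194 CPM in libraries labelled knockout), summed to 12963 to 14656 CPM in controls, highest in control 3, which also had the highest Runx1, and to 10191 to 10878 CPM in libraries labelled knockout. Of 6 beige or brown fat markers, 5 rose, where 6.91% of all tested genes were called upward, and Tmem26 (−0.209) did not pass. The summed level of all 6 was 461.5 to 559.6 CPM in controls and 778 to 913.6 CPM in libraries labelled knockout. The part of these shifts in the Runx1 result was not tested; in bulk samples, fewer cells of a type and less RNA per cell cannot be told apart.

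**Figure D3:**
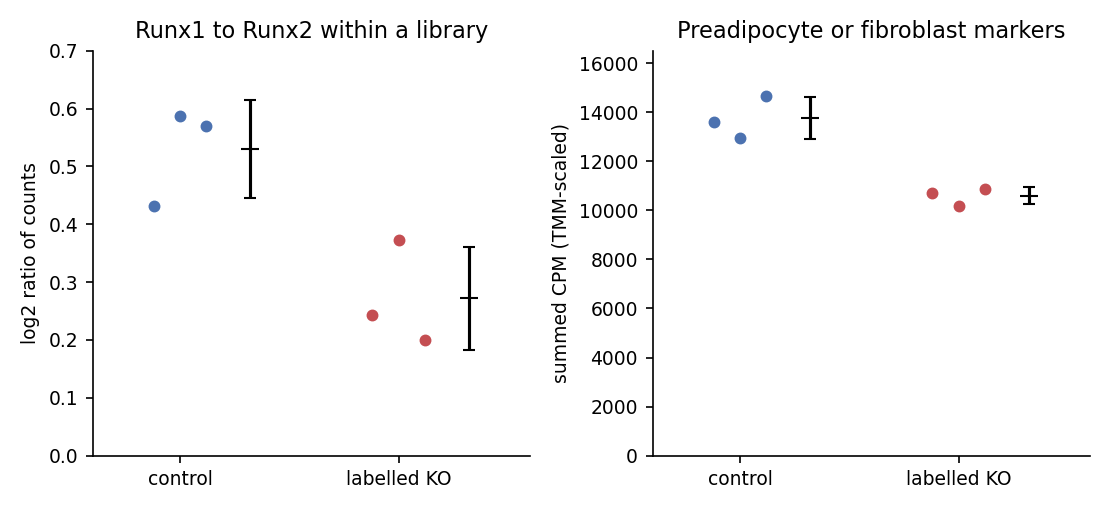
Left, log2 ratio of Runx1 to Runx2 counts in each library, from the Runx2 row with more counts (vertical axis starting at 0, equal counts); right, summed CPM of the 6 preadipocyte or fibroblast markers in the table. Controls are blue and libraries labelled knockout red, in replicate order, with mean and SD in black; in both panels each library labelled knockout lies below each control.

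Among the ETO genes, Runx1t1 varied most between libraries. It was at 19.51, 14.96 and 21.34 CPM in controls 1 to 3 and at 19.08, 12.86 and 14.6 CPM in knockouts 1 to 3. The groups overlapped widely, since knockout 1 was above control 2. Mean levels were 18.6 ± 3.29 and 15.51 ± 3.21 CPM (SD, n = 3 per group), and the log2 fold change of −0.27 had an SE of 0.151 and a 95% interval from −0.6 to 0.066 (edgeR adjusted p 0.281). A fall as large as that of Runx1 lies within that interval, so these libraries do not separate a fall of Runx1t1 from none. Leaving out 1 library moved the estimate from −0.445, without knockout 1, to −0.151, without knockout 2, and it did not pass the threshold in any of these fits.

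Cbfa2t2, a paralog of Runx1t1 that also acts with PRDM14 in pluripotent cells, was the steadiest ETO gene. Its levels were 59.49, 59.43 and 57.94 CPM in controls 1 to 3 and 57.12, 62.5 and 59.33 CPM in knockouts 1 to 3. The groups overlapped, with knockouts both lowest and highest. The log2 fold change was 0.02 (SE 0.0481, 95% interval −0.089 to 0.123; edgeR adjusted p 0.862). The log2 ratio of Runx1t1 to Cbfa2t2 counts was −1.608, −1.99 and −1.441 in controls and −1.582, −2.281 and −2.023 in libraries labelled knockout, with overlap (exact two-sided permutation p = 0.3, adjusted 0.4 over 4 pairs).

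By the correlation of log2 CPM over the 6 libraries, the genes with a pattern most like Runx1 among 10573 genes averaging 5 CPM or more were Rasa1 (Pearson r 0.9962), Fam131b (0.996) and Tnfaip1 (0.9952). Rasa1, which encodes a GTPase-activating protein for RAS, was at 113.2, 115 and 127 CPM in controls 1 to 3 and at 100.6, 102.2 and 100.1 CPM in knockouts 1 to 3. Like Runx1, it was highest in control 3 and nearly level across the libraries labelled knockout. Fam131b was at 10.04, 9.34 and 12.66 CPM in controls and 6.67, 7.47 and 6.76 CPM in libraries labelled knockout. Tnfaip1 was at 78.5, 77.09 and 82.54 CPM in controls and at 71.52, 72.32 and 71.99 CPM in libraries labelled knockout, and did not pass the threshold (edgeR adjusted p 0.0594). The correlations rest on 6 libraries in 2 groups and describe only this ranking.

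Of 6 listed genes of the Groucho family, whose full-length members dock on the RUNX motif shown above, 4 rose: Tle3 (1.91-fold), Aes (1.31-fold), the short member without the WD-repeat part that binds the motif, Tle4 (1.25-fold) and Tle1 (1.17-fold), with a list median log2 fold change of 0.385 against −0.002 over all tested genes and 6.91% of tested genes called upward. Both the count of 4 and the list median include Tle3, the targeted gene itself. Aes averaged 285.5 ± 3.19 CPM in controls and 373.2 ± 22.3 CPM in libraries labelled knockout (SD, n = 3 per group, edgeR adjusted p 0.000889). Tle2 was at 10.96 and 14.46 CPM (edgeR adjusted p 0.188), and Tle6 at 3.28 and 4.86 CPM (edgeR adjusted p 0.0515). Without knockout 3, 2 of the 6 rose, the calls for Tle1 (edgeR adjusted p 0.0636) and Tle4 (0.0828) being lost; DESeq2 did not call Tle1 either (adjusted p 0.0801), nor did edgeR without control 2, control 3, knockout 1 or knockout 2 (0.0681 to 0.12).

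Of 11 listed coactivators of RUNX proteins, all in the table, 2 fell (5.44% of all tested genes were called downward). The list median was −0.07 against −0.002 over all tested genes. Before adjustment, 4 had an edgeR p under 0.05, in a fit where a gene at an edgeR p of 0.0503 ranked 3687 of 13192. Of the 2, Wwtr1, which encodes the Hippo pathway coactivator TAZ, went from 183.3 ± 1.57 to 163.1 ± 2.17 CPM (edgeR adjusted p 0.0156), and the BMP signal transducer gene Smad1 from 25.95 ± 2.37 to 21.38 ± 0.501 CPM (SD, n = 3 per group; edgeR adjusted p 0.0352). The acetyltransferase genes Ep300 and Crebbp had log2 fold changes of −0.075 and −0.12 and did not pass. The count was 0 without control 1, knockout 1, knockout 2 or knockout 3 (edgeR adjusted p 0.0523 to 0.131) and 1 without control 3 or with DESeq2, where Smad1 was lost.

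Of 10 listed inhibitors and ubiquitin ligases of RUNX proteins, edgeR called 0, as did limma-voom and DESeq2, where edgeR called 12.3% of all tested genes. Before adjustment, 3 had an edgeR p under 0.05, in a fit where a gene at an edgeR p of 0.0503 ranked 3687 of 13192. The list median was a log2 fold change of −0.023. The ubiquitin ligase gene Smurf1 averaged 120.8 ± 3.11 CPM in controls against 112.2 ± 1.92 CPM in libraries labelled knockout (SD, n = 3 per group; edgeR adjusted p 0.117), and the related ligase gene Smurf2 was at 90.85 and 88.33 CPM (edgeR adjusted p 0.614). Twist1, whose product binds and restrains RUNX2, was at 38.57 and 35.28 CPM (edgeR adjusted p 0.135). The histone deacetylase gene Hdac4 was at 24.53 and 21.48 CPM in the row with more counts of its 2 rows (edgeR adjusted p 0.105).

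Of 9 listed genes of the corepressor complexes through which ETO proteins act, all in the table, 1 fell (against 5.44% of all tested genes): Tbl1x, a subunit of the NCoR complex, from 163.9 ± 3.16 to 144.7 ± 3.29 CPM (SD, n = 3 per group; edgeR adjusted p 0.0148). The log2 fold changes of the other 8, among them Ncor1, Sin3a and Hdac3, lay between −0.094 and 0.09, and the list median was 0.051. Tbl1x no longer passed when control 1, knockout 2 or knockout 3 was left out (edgeR adjusted p 0.0555 to 0.0727). Of 11 DNA-binding factors and adaptors that ETO proteins join, 7 were in the table and edgeR called 0 of them, where 12.3% of all tested genes were called. At an unadjusted edgeR p under 0.05 there was 1, namely Tcf4 (137.3 and 121.7 CPM, edgeR adjusted p 0.051). DESeq2 and limma-voom also called 0. Tal1, Lyl1, Gfi1 and Gfi1b, the blood-lineage partners, had no row. Tcf4 alone was called without control 2, with library size alone, with upper-quartile factors, with a filter of at least 5 CPM in 3 libraries and with the replicate block.

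**Figure D4:**
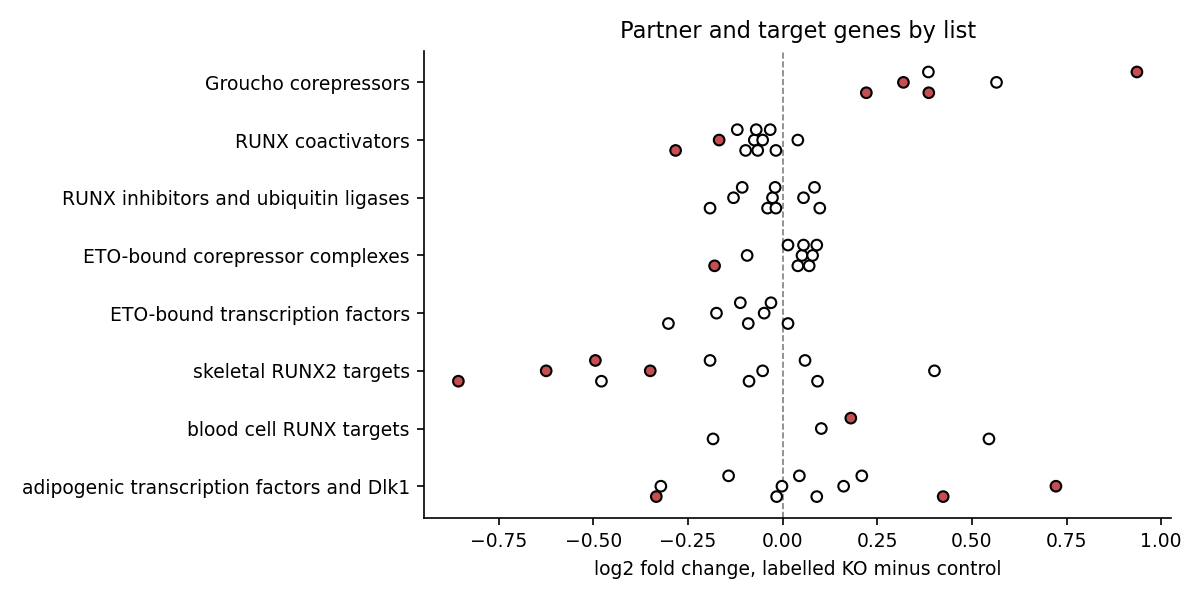
Log2 fold change, libraries labelled knockout minus controls (horizontal axis), of each tested gene of the partner and target lists (rows; vertical offsets only separate points). Filled circles passed an adjusted p under 0.05 and open circles did not; the 6 Groucho genes, 4 of them called, lie above 0, from 0.221 to 0.936, and the 4 called skeletal genes all lie below 0.

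Genes known as RUNX2 targets in the skeleton were measured in part. Of 18 listed, 11 were tested, and 4 fell, with a list median of −0.192 (5.44% of all tested genes were called downward). Of the 6 preadipocyte or fibroblast markers in the table, Pdgfra, Thy1 and Fn1 fell in the same libraries (log2 fold changes −0.376, −0.424 and −0.45). Col3a1 (−0.181), Cd34 (0.075) and Ly6a (0.136) did not pass, and Dlk1, not on that list, rose (0.722). The part of the fallen markers in the skeletal result was not tested. Alpl, tissue-nonspecific alkaline phosphatase, was at 47.71, 54.22 and 47.98 CPM in controls 1 to 3 and at 32.98, 35.74 and 37.5 CPM in knockouts 1 to 3. These groups stood well apart, with a log2 fold change of −0.495 (SE 0.0671; edgeR adjusted p 0.00142). The osteopontin gene Spp1 went from 644 ± 69.4 to 505.3 ± 32.6 CPM (SD, n = 3 per group; edgeR adjusted p 0.0119). The type X collagen gene Col10a1 (edgeR adjusted p 0.0128) was at 16.14 and 10.51 CPM, and Tnfrsf11b, the osteoprotegerin gene, at 2.32 and 1.26 CPM (edgeR adjusted p 0.0444). The collagen genes Col1a1 and Col1a2 were at 4246 and 4400 CPM in controls and 4092 and 4136 CPM in libraries labelled knockout and did not pass. Without control 1, knockout 2 or knockout 3, 2 of the 11 fell. The Tnfrsf11b call was lost without any 1 library other than control 3 (edgeR adjusted p 0.0983 to 0.124), with DESeq2 (adjusted p 0.101) and with limma-voom (0.0623). Col10a1 no longer passed without control 1 (edgeR adjusted p 0.0585) or knockout 2 (0.0509), nor did Spp1 without knockout 3 (edgeR adjusted p 0.0748). Alpl passed in all 13 alternatives.

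Targets known from blood cells were mostly below the table's reach, with 5 of 14 listed genes in it and 4 tested. Of these 4, 1 rose, where 6.91% of all tested genes were called upward. It was Zbtb7b, a zinc finger gene that RUNX factors control in T cells, at 104.8 ± 5.06 CPM in controls and 118.7 ± 2.97 CPM in libraries labelled knockout (SD, n = 3 per group, edgeR adjusted p 0.0308). The other 3, Csf1r, Itga2b and Itgae, stood between 1.23 and 3.25 CPM in controls and did not pass. Zbtb7b no longer passed when control 3 or any 1 of the libraries labelled knockout was left out (edgeR adjusted p 0.0602 to 0.112).

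Among 11 adipogenic regulators, listed because ETO and RUNX proteins act on or beside them, 2 rose and 1 fell, where 6.91% of all tested genes were called upward and 5.44% downward, with a list median of 0.044. Dlk1, the preadipocyte gene also called Pref-1, rose 1.65-fold, from 86.92 ± 19.6 to 144 ± 4.44 CPM (SD, n = 3 per group; edgeR adjusted p 0.00363). Ebf2, a transcription factor gene of brown and beige fat, rose 1.34-fold (edgeR adjusted p 0.00876), and Zfp423, which holds back the thermogenic program in white fat cells, fell from 28.62 ± 1.11 to 22.69 ± 1.35 CPM (SD, n = 3 per group; edgeR adjusted p 0.0102). Cebpb, the factor that RUNX1T1 restrains, was at 28.72 ± 3.93 and 28.81 ± 0.717 CPM (SD, n = 3 per group) and Cebpa at 173.2 ± 8.56 and 171.1 ± 1.66 CPM, and neither passed. Without control 2, 5 of the 11 changed.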

How the data were processed

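Poly(A) RNA of 6 libraries was measured. Per the file headers, the authors deposited whole-number counts per gene, each gene with at least 10 counts in at least 1 library, beside FPKM rounded to whole numbers, treated as a score and used only for levels per length. Novoalign 2.8, Picard, DESeq2 and build mm9 are named in the submitters' processing notes; for the counter, annotation and strand setting no source used here gives an answer. GRCm38 promoter windows and transcripts were joined by gene name. Overlapping genes, and the check of member rows against GENCODE M21, were matched by gene ID.

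The family and lists were chosen with earlier results of these data known. Named genes were all members, the changed members of each list (up to 5, else 4), the Groucho genes, and the 3 genes correlating best with each changed member. Some list genes that did not pass were named outside this rule, among them Smurf1, Ep300, Col1a1 and Cebpb. Counts were filtered by expression (770 genes set aside), TMM-scaled and tested by group alone in edgeR 4.0.16 (R 4.3.3), with scripts tested on simulated data; the SE is the log2 fold change over the root of F. Alternatives used DESeq2 1.42.0, limma 3.58.1, other scalings and filters, a replicate block and leaving out each library. No protein table was used, and some listed genes are not reported here.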

Additional observations from a re-analysis of the deposited data

How the results depend on the processing

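Runx1 stayed lower and under an adjusted p of 0.05 in all 13 alternatives, with log2 fold changes from −0.379 to −0.257 and its highest adjusted p, 0.0437, without knockout 3; the number of family members called was 1 in each. Cbfa2t2, not called, turned to −0.018 without knockout 2. Leaving out each library in turn, the changed genes numbered 621 to 1895 over all genes and 7 to 17 of the listed partners and targets (15 with every library); fits without 1 library have fewer samples. Without each library in turn, the differences in log2 ratio ran from −0.308 to −0.222 for Runx1 to Runx2, −0.786 to −0.423 for Runx1 to Runx3, −0.564 to −0.167 for Runx2 to Runx3 and −0.472 to −0.123 for Runx1t1 to Cbfa2t2.

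The replicate numbers pair nothing that the labels state, and deviations of same-numbered libraries correlated at −0.036, 0.175 and 0.03, with control 1 and control 3 each correlating better with another number. With the replicate block, 1809 genes and 17 of the listed genes were called, Runx1 had a log2 fold change of −0.336 (edgeR adjusted p 0.00421), and the ratio of Runx1 to Runx2 differed by −0.258 (exact permutation p = 0.25, the smallest that 3 pairs allow). Depth limits Runx3, at 13 to 20 counts per library.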
